A study of Mus musculus with 8 samples.

Results

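The cells described here were droplet barcodes of mouse ependymoma samples that carried transcripts of neural or tumour cells and none of a few genes of leukocytes and of dividing cells. Members were chosen by their UMI counts. A barcode was a member if it held at least 1000 unique molecular identifiers (UMIs, counted molecules), 200 to 6000 genes and at most 10% mitochondrial UMIs. It also had to pass the conditions on marker genes that follow. It had no UMI of Ptprc (CD45, the pan-leukocyte antigen), of Cd3d, Cd3e and Cd3g (the T cell receptor complex), or of Tyrobp (an adaptor of myeloid and natural killer cells). It had at least 3 UMIs in all of Nnat, Mdk, Sox2ot and Ctnna2. It had none of Mog and Mag (myelin genes of mature oligodendrocytes) and none of Mki67 and Top2a (genes of dividing cells). Of 39632 barcodes that passed the quality limits, 12994 were members.

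The barcodes came from 4 gene expression libraries of brain tumours of NestinCreERT2;Fus1;RFPTdT mice, a genotype shared by every group, in which a Nestin-driven recombinase switches on a ZFTA-RELA fusion with luciferase in neural progenitors. Mice with tumours entered the trial at 3 weeks of age, by random assignment, and received 1 intrathecal injection of control antibody (Vehicle IgG) or of mavrilimumab, an antibody against the GM-CSF receptor alpha chain, at 5 mg/kg. There were 2 libraries per group, called here by their labels vehicle IgG 1 and 2 and mavrilimumab 1 and 2, made from mice of 6 to 8 weeks after staining for CD45 and the erythroid antigen Ter119 and sorting. The labels do not say which sorted fraction was loaded or how many mice a library pools. The study describes its cells as CD45+ cells from outside the vessels, taken from pooled tumours at recurrence. The share of members among sorted cells need not be that in the tumour.

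ZFTA-RELA ependymoma is a childhood tumour of the cerebral hemispheres thought to arise from radial glia, the neural stem cells that line the ventricles and give rise to neurons, astrocytes, oligodendrocyte precursors and ciliated ependymal cells. The fusion joins ZFTA to RELA, a subunit of the transcription factor NF-kB. NF-kB is normally held in the cytoplasm by inhibitors such as IkB alpha (gene Nfkbia), and when released it switches on genes of inflammation and survival together with its own inhibitors. The fusion transcript, tdTomato and luciferase were not among the features counted. Mouse Zfta and Rela were, but these counts cannot tell the fusion from the genes themselves, so tumour cells and other neural cells were not told apart.

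Before any value, 3 facts limit the use of the group labels. The members were 7 barcodes in vehicle IgG 1, 12612 in vehicle IgG 2, 5 in mavrilimumab 1 and 370 in mavrilimumab 2, so that 97.1% of all members belonged to 1 library. In 3 of the 3 T cell receptor files analysed, the sample field inside gave the opposite treatment to the label. Barcodes of the receptor library labelled mavrilimumab 1 lay in the expression library mavrilimumab 2 (2614 of 2749, against 2 in mavrilimumab 1), those of the library labelled mavrilimumab 2 lay in mavrilimumab 1 (4869 of 5659, against 8 in mavrilimumab 2), and those labelled vehicle IgG 1 lay in vehicle IgG 1 (187 of 193). No receptor file was analysed for vehicle IgG 2, which holds nearly all members, so each direction below is between libraries by label. The libraries shared few member barcodes: 3 between vehicle IgG 2 and mavrilimumab 2, and 0 between any other pair.

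Members made up 0.711% of the barcodes passing quality in vehicle IgG 1 (exact binomial 95% interval 0.286 to 1.46), 47.2% in vehicle IgG 2 (46.6 to 47.8), 0.0780% in mavrilimumab 1 (0.0253 to 0.182) and 6.74% in mavrilimumab 2 (6.09 to 7.44). These intervals, like all others given here, cover counting error only. The highest value was in 1 library of the vehicle group, and the groups overlapped. The mean was 23.9% ± 32.8 (SD, n = 2) in the vehicle IgG group and 3.41% ± 4.71 (SD, n = 2) in the mavrilimumab group, and the difference of -20.5 percentage points was smaller than the spread within the vehicle group (exact permutation test, two-sided, p = 0.667, the smallest this design allows being 0.333). Without vehicle IgG 2 the difference was 2.70 points, in the opposite direction. As an alternative, marker UMIs had to exceed an upper quantile of the ambient level, a stricter limit than that level itself. Vehicle IgG 2 then kept 2765 members (10.3%) and mavrilimumab 2 kept 224 (4.08%), and the difference between the groups was -3.24 points. Members left out by this limit need not lie at or below the ambient level. Ptprc was seen in 87.1%, 26.4%, 97.2% and 82.2% of the barcodes in the order above. A barcode with Ptprc cannot be a member, so these values are part of the rule. Among barcodes with no Ptprc the members were 5.51%, 64.1%, 2.79% and 37.8%. Shares depend on all cells loaded, and fewer cells of a type cannot be told apart here from more cells of another.

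**Figure D1:**
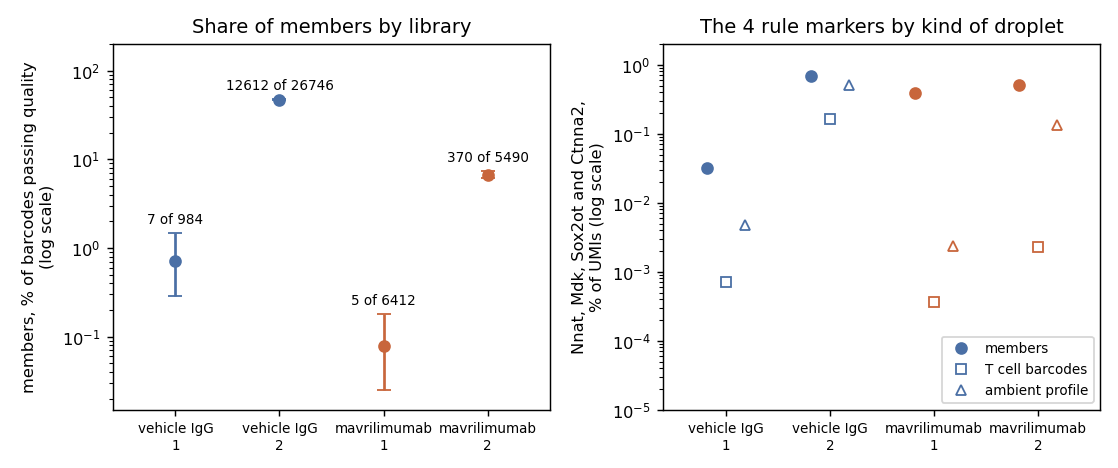
Left, members as a percent of barcodes passing quality in each library on a log scale, with exact binomial 95% intervals and the counts printed beside. Right, the 4 rule markers as a percent of all UMIs in members, T cell barcodes and the ambient profile. Vehicle IgG 2 stands above the other libraries in both panels, and its ambient profile, at 0.517%, lies close to its members, at 0.688%.

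Depth differed among libraries as well. Members held 127463 UMIs in vehicle IgG 1, 51991911 in vehicle IgG 2, 70389 in mavrilimumab 1 and 2396407 in mavrilimumab 2. The median member had 3474 UMIs and 1941.5 genes in vehicle IgG 2 and 3851.5 UMIs and 1747 genes in mavrilimumab 2, against 21245 UMIs in vehicle IgG 1 and 13920 in mavrilimumab 1. Levels below are CPM, the UMIs of a gene in all members of a library added together and scaled to a common total of 1000000 UMIs, with an exact Poisson 95% interval where one is given. Counts from the 5′ end are not per transcript length, so levels are compared between libraries and cell groups and not between genes. A gene at 0 is limited at 3 counts to 0.0577 CPM in vehicle IgG 2 and to 1.25 CPM in mavrilimumab 2.

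The values that chose the members are given as a description. In vehicle IgG 2 the imprinted gene Nnat (neuronatin, a proteolipid of developing brain) stood at 4336 CPM, Mdk (the growth factor midkine) at 1209.8 CPM, Sox2ot (a long RNA that overlaps Sox2) at 844 CPM and Ctnna2 (neuronal alpha-catenin) at 485 CPM. The same genes had 2888, 1415, 505 and 282 CPM in mavrilimumab 2. Nnat carried 63.1% of the marker UMIs in vehicle IgG 2 and was seen in 95.3% of its members. The few members of the other libraries were unlike these: vehicle IgG 1 had 16 UMIs of Nnat, 3 of Mdk, 21 of Sox2ot and 0 of Ctnna2, and mavrilimumab 1 had 115, 138, 20 and 0. At the edge of the rule, vehicle IgG 2 had 378 barcodes with 2 marker UMIs, just outside, and 459 with 3, just inside, with medians of 1638 and 1667 UMIs. In mavrilimumab 2 the corresponding numbers were 30 and 13 barcodes, with medians of 2133.5 and 5262 UMIs.

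Free RNA, which reaches all droplets of a library, was measured as well. Barcodes of 10 to 300 UMIs were added together as an ambient profile, in which the 4 rule markers made up 0.00483% of UMIs in vehicle IgG 1, 0.517% in vehicle IgG 2, 0.00238% in mavrilimumab 1 and 0.132% in mavrilimumab 2. T cell barcodes, which should lack these transcripts, held 0.165% in vehicle IgG 2 and 0.00227% in mavrilimumab 2. In vehicle IgG 2 the free RNA was thus itself rich in neural transcripts, and the contrast of members with T cells was much wider in mavrilimumab 2.

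Markers of other cell types were summed as a description. Members had no UMI of Ptprc, the Cd3 genes or Tyrobp, and T cell barcodes were chosen by their Cd3 UMIs. Low T cell and myeloid levels in members are therefore in part set by the rule and are no check of the label. The 9 T cell genes summed to 19.4 CPM in members of vehicle IgG 2 and 34.2 CPM in those of mavrilimumab 2, against 4040.0 and 6658 CPM in the T cell barcodes of the same libraries. The 11 myeloid genes summed to 477 and 1868 CPM. Over 19 of these 20 genes, T cell and myeloid genes together came to 40.8 CPM in vehicle IgG 2, where 0 of 19 genes were at 0, and to 101 CPM in mavrilimumab 2, where 1 of 19 was at 0. Over all 20 the sums were 496 and 1902 CPM, so most UMIs of the myeloid list came from the gene left out, which is not reported here. Exclusions below over all 20 genes act mostly on that gene: they kept 46 members of mavrilimumab 2, against 322 over 19. At least 2 UMIs of these 19 genes were held by 210 members of vehicle IgG 2 and by 48 members of mavrilimumab 2. Endothelial genes summed to 21.3 and 18.8 CPM and mural genes to 9.02 and 27.96 CPM. The fibroblast list was higher, at 1440.4 and 2780.4 CPM, most of it the imprinted growth factor gene Igf2 (1273 and 2292 CPM) and the collagen gene Col1a1 (149 and 464 CPM), while the collagen gene Col3a1 stood at 3.23 CPM and 0 UMIs. The part of these transcripts in the differences between libraries was not tested beyond the exclusions given with the results.

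Members of vehicle IgG 2 were set against all its other barcodes of good quality, as a description, since the rule separates the same barcodes. The 15 genes with the largest ratios, rule genes left out, included Tac2 (a neuropeptide precursor; 139.9 CPM), Kcnb2 (a neuronal potassium channel; 54.9 CPM), Adarb2 (an RNA-editing family member of interneurons; 93.8 CPM), Reln (reelin, which guides migrating neurons; 78.0 CPM) and Stmn2 (a microtubule regulator of growing neurites; 126 CPM). Glial genes stood beside them, such as Ednrb (an endothelin receptor of astrocytes; 91.0 CPM) and Pcdh15 (a protocadherin of oligodendrocyte precursors; 62.4 CPM). The list thus joined neuronal and glial genes.

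For levels of single genes and gene lists, mavrilimumab 2 was set against vehicle IgG 2, the only libraries with at least 20 members. With 1 library a group there is no test, and differences are described by a limit of 2-fold. Among all 8640 genes with at least 20 CPM in either library, 387 (4.48%) were at least 2-fold higher and 199 (2.3%) at least 2-fold lower in mavrilimumab 2, together 586 genes (6.78%). A gene under 20 CPM in 1 library enters only by being higher in the other, so for such genes the floor favours the call. In T cell barcodes of the same libraries, 174 genes were higher and 1124 lower of 7914, and in myeloid barcodes 128 were higher and 874 lower of 8317. The balance of higher and lower genes in members was therefore not that of the other barcodes. The free RNA in those barcodes also differed: the 4 rule markers made up 0.165% of T cell UMIs in vehicle IgG 2 and 0.00227% in mavrilimumab 2. The part of free RNA in this contrast was not tested, so it does not show that members changed differently from other cells.

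Neuronal genes were present in both libraries. The 12 neuron genes summed to 1436 CPM in vehicle IgG 2 and 1126 CPM in mavrilimumab 2, against 396 and 10.3 CPM in T cell barcodes and 1451 and 395 CPM in the ambient profiles. Of the 7 that reached 20 CPM, 0 were 2-fold higher and 1 was 2-fold lower in mavrilimumab 2. That gene was Gad2, which makes the inhibitory transmitter GABA, at 172 CPM (169 to 176) and 79.3 CPM (68.4 to 91.4). Map2, a dendrite microtubule protein, stood at 779 CPM (771 to 786) in vehicle IgG 2 and 587 CPM (556 to 618) in mavrilimumab 2. Rbfox3, the splicing factor NeuN of mature neurons, was the other way round, at 140 CPM (137 to 144) and 244 CPM (224 to 264). Genes of mature synapses and axons gave few UMIs: Snap25, a synaptic vesicle fusion protein, had 35.4 and 20.9 CPM, and the neurofilament gene Nefm had 2.58 CPM in vehicle IgG 2 and 0 UMIs in mavrilimumab 2. A UMI of Snap25 was seen in 9.75% of members of vehicle IgG 2 and 7.30% of mavrilimumab 2. After each cell was thinned to 1000 UMIs the shares were 3.76% and 1.67%, against 0.659% and 0.0375% in T cell barcodes, which had medians of 2593 and 10524.5 UMIs before thinning.

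Genes of young neurons were also present in both libraries. The 12 neuroblast genes summed to 2194 CPM in vehicle IgG 2 and 1703 CPM in mavrilimumab 2 (T cell barcodes 493 and 54.8 CPM, ambient profiles 1933 and 349.6 CPM). All 12 reached 20 CPM, of which 1 was 2-fold higher and 2 were 2-fold lower. Sox4, a transcription factor of newborn neurons, stood at 536 and 497 CPM, and Igfbpl1, a secreted protein of neuroblasts, at 347 and 302 CPM. The homeobox genes Dlx1 and Dlx2, which direct cells to the inhibitory lineage, were the lower pair: Dlx1 had 118 CPM (115 to 121) and 44.2 CPM (36.2 to 53.5), and Dlx2 had 66.3 CPM (64.1 to 68.6) and 26.3 CPM (20.2 to 33.6). Eomes, a factor of excitatory intermediate progenitors that T cells also use, was higher, at 17.3 CPM (16.2 to 18.5) and 50.9 CPM (42.3 to 60.8), and its level in T cell barcodes was 19.8 and 42.9 CPM. It passed the floor only through mavrilimumab 2.

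Astrocyte genes were abundant in both libraries and 2 of them stood higher in mavrilimumab 2. The 10 genes summed to 14619.7 CPM in vehicle IgG 2 and 15732 CPM in mavrilimumab 2, with 3279 and 101 CPM in T cell barcodes and 11025 and 4660.2 CPM in the ambient profiles. Most of these UMIs were of Clu (clusterin, a secreted chaperone), at 6547 and 8487 CPM, and Apoe (the lipid carrier apolipoprotein E), at 5407 and 4943 CPM. Myeloid barcodes held 6899 and 6875 CPM of the list, most of it Apoe, at 4989 and 6814 CPM there. All 10 genes reached 20 CPM, with 2 higher by 2-fold and 0 lower. Those were the water channel Aqp4, at 10.6 CPM (9.69 to 11.5) and 78.5 CPM (67.6 to 90.5), and the intermediate filament Gfap, at 61.4 CPM (59.3 to 63.5) and 196 CPM (179 to 215). Aqp4 passed the floor only through mavrilimumab 2. The log2 ratio of Gfap turned from 1.66 to -0.82 when members with at least 2 UMIs over all 20 T cell and myeloid genes were left out, which kept 46 members of mavrilimumab 2. The same exclusion over 19 of these genes kept 322, so the one over 20 acts mostly on the gene left out. Aldoc, a glycolytic enzyme of astrocytes, went the other way without reaching 2-fold, at 1232 and 637 CPM. The difference between libraries was therefore not shared by the list, whose median log2 ratio was 0.37 against -0.08 over all genes.

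Radial glia and stem cell genes had like sums in both libraries, which in vehicle IgG 2 lay near that of free RNA. The 13 genes summed to 2685 CPM in vehicle IgG 2 and 2595 CPM in mavrilimumab 2, and to 2525 and 1767 CPM in the ambient profiles. T cell barcodes had 1756 and 1219.7 CPM, most of it Vim, a filament gene that T cells also express (1054 and 1011 CPM there). Ptprz1, a receptor phosphatase of radial glia, stood at 762 and 637 CPM, and Fabp7, the brain lipid-binding protein, at 390.5 and 264 CPM. Of the 10 genes that reached 20 CPM, 1 was 2-fold higher and 2 were 2-fold lower. Vim was higher, at 322 CPM (317 to 327) and 989 CPM (949 to 1029). The glutamate transporter Slc1a3 was lower, at 706 and 300.5 CPM, and so was the stem cell factor Sox2, at 149 CPM (145 to 152) and 65.9 CPM (56.1 to 77.1).

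Oligodendrocyte precursor genes were also carried in both libraries. The 8 genes summed to 1482 CPM in vehicle IgG 2 and 1735 CPM in mavrilimumab 2, against 306 and 6.28 CPM in T cell barcodes and 1082 and 571 CPM in the ambient profiles. The lineage factor Olig1 stood at 863 and 1115 CPM and Olig2 at 267 and 179.9 CPM. Of 8 genes at 20 CPM or more, 1 was 2-fold higher and 0 were lower. Sox10, which drives the oligodendrocyte lineage, was that gene, with 63.9 CPM (61.7 to 66.1) in vehicle IgG 2 and 142 CPM (127 to 158) in mavrilimumab 2. Olig2 was seen in 44.4% and 43.0% of members, or 19.6% and 17.9% after thinning, against 3.16% and 0.0699% of thinned T cell barcodes. Myelin genes of mature oligodendrocytes were a different case, since the rule removed Mog and Mag: the 8 genes summed to 622 and 214 CPM in members and to 2824 and 4080.4 CPM in the ambient profiles, so they were more abundant in free RNA than in the members.

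Ependymal genes gave few UMIs, and of the list Ccdc153 and Tmem212 were near 0 while Foxj1 was not. The 12 ependymal genes summed to 105 CPM (102 to 107) in vehicle IgG 2 and 177 CPM (160.1 to 194) in mavrilimumab 2, with 32.2 and 9.33 CPM in T cell barcodes and 90.6 and 58.2 CPM in the ambient profiles. The 11 genes other than Rarres2, which is not a cilium gene, summed to 90.7 and 116 CPM. Foxj1, the master factor of motile cilia, stood at 25.8 CPM (24.4 to 27.2) and 23.0 CPM (17.3 to 29.9), and these intervals overlapped. Ccdc153 and Tmem212 were at 0.558 and 0.923 CPM in vehicle IgG 2, and in mavrilimumab 2 there were 0 UMIs of Ccdc153 and 1 of Tmem212. Only 3 genes of the list reached 20 CPM, of which 1 was higher by 2-fold, the secreted chemerin gene Rarres2, at 13.9 CPM (12.9 to 15) and 60.9 CPM (51.4 to 71.6). Rarres2 passed the floor only through mavrilimumab 2, so this count is not a result about the list. Foxj1 was seen in 7.49% and 5.68% of members, or 1.99% and 1.02% after thinning, against 0.386% and 0.0190% of thinned T cell barcodes.

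Choroid plexus genes stood out in the libraries with few members. The 7 genes of this secretory epithelium summed to 261080 CPM in vehicle IgG 1, 2598 CPM in vehicle IgG 2, 44908 CPM in mavrilimumab 1 and 22350.1 CPM in mavrilimumab 2. Ttr, the thyroid hormone carrier transthyretin, alone had 29047 of the 127463 UMIs of vehicle IgG 1. In mavrilimumab 2, 99.9% of the 46238 Ttr UMIs lay in 6 barcodes of a choroid plexus-like sub-cluster, and in vehicle IgG 2 95.6% lay in 93 such barcodes. Without that sub-cluster Ttr stood at 17.6 CPM in mavrilimumab 2 and 101 CPM in vehicle IgG 2, so the direction between the libraries turned round. The members thus include a few epithelial barcodes, and 4 of the 7 in vehicle IgG 1 were among them.

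**Figure D2:**
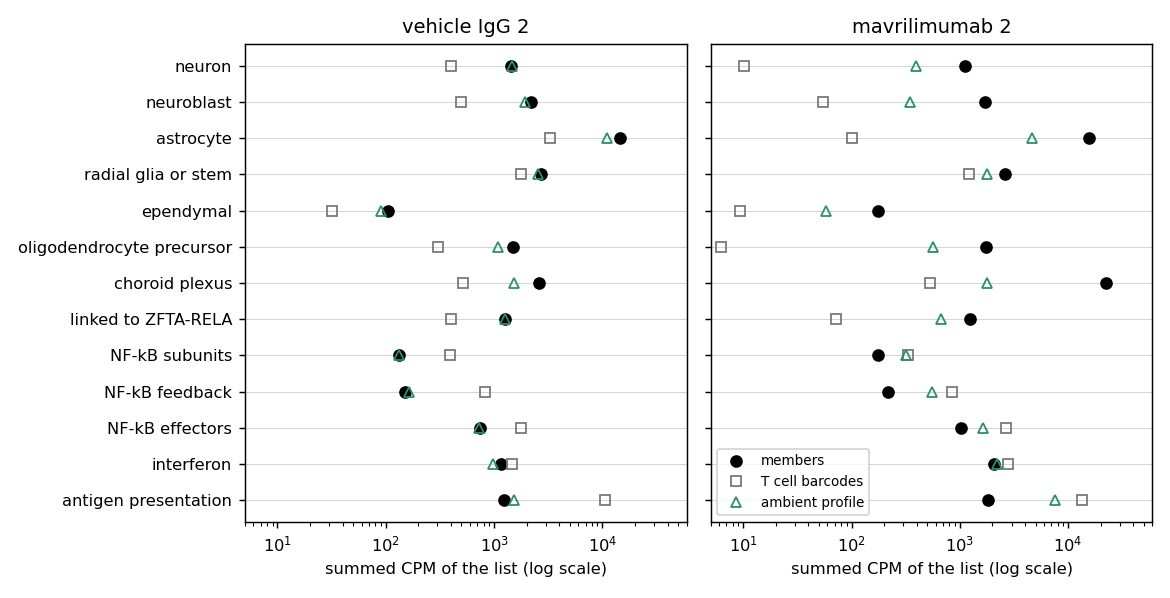
Summed CPM of 13 gene lists (log scale) in members, T cell barcodes and the ambient profile of vehicle IgG 2 and mavrilimumab 2. In mavrilimumab 2 the neural lists lie to the right of the ambient profile and of T cells (neuron genes at 1126, 395 and 10.3 CPM), in vehicle IgG 2 neuron genes lie beside the ambient profile (1436 and 1451 CPM), and NF-kB feedback and antigen presentation genes lie to the left of T cells in both libraries.

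The genes linked to the fusion differed little between the libraries. Zfta stood at 139 CPM (136 to 142) in members of vehicle IgG 2 and 112 CPM (99.2 to 127) in those of mavrilimumab 2, against 38.6 and 1.34 CPM in T cell barcodes. Rela had 51.4 CPM (49.5 to 53.4) and 49.7 CPM (41.1 to 59.4), and these intervals overlapped. Its level in T cell barcodes was alike, at 50.2 and 58.6 CPM, so that Rela set the members apart from T cells far less than Zfta did. The list linked to ZFTA-RELA tumours, of which 11 of 12 genes were measured, summed to 1262 and 1248 CPM, against 400.3 and 71.5 CPM in T cell barcodes and 1269 and 675 CPM in the ambient profiles, so that in vehicle IgG 2 members and free RNA had like levels. Ccnd1, which encodes cyclin D1, stood at 532 CPM (526 to 538) and 548 CPM (519 to 579). Other members of the list were the growth factor receptor Fgfr1 (187 and 203 CPM), the receptor Notch1 (159 and 131 CPM) and the Hedgehog effector Gli2 (95.2 and 83.9 CPM). L1cam, an adhesion gene used to recognise such tumours in patients, stood at 7.21 and 8.76 CPM. Of 10 genes at 20 CPM or more, 1 was 2-fold higher, the calcium channel gene Cacna1h, at 1.12 CPM (0.847 to 1.44) and 21.7 CPM (16.2 to 28.5), and 0 were lower. Cacna1h passed the floor only through mavrilimumab 2, so this count is not a result about the list. Zfta was seen in 38.2% and 37.8% of members, 12.8% and 10.9% after thinning, against 2.75% and 0.194% of thinned T cell barcodes.

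NF-kB subunit genes, Rela apart, were lower in members than in T cells. The 5 subunits summed to 132 CPM in vehicle IgG 2 and 177 CPM in mavrilimumab 2, to 393 and 329 CPM in T cell barcodes and to 131 and 315 CPM in the ambient profiles. Nfkb1, whose product p50 pairs with RELA, had 60.4 CPM (58.3 to 62.6) and 89.7 CPM (78.1 to 103). Relb (5.21 and 11.7 CPM), Rel (6.67 and 11.3 CPM) and Nfkb2 (8.04 and 14.6 CPM) were near the floor of the comparison.

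The feedback genes, which NF-kB induces to limit itself, summed to 151 CPM in vehicle IgG 2 and 219 CPM in mavrilimumab 2, against 824 and 843 CPM in T cell barcodes and 163 and 553 CPM in the ambient profiles. Nfkbia stood at 52.9 CPM (50.9 to 54.9) and 67.2 CPM (57.2 to 78.4) in members and at 299.97 and 277 CPM in T cells. It was seen in 14.9% and 17.6% of members, and after thinning in 4.37% and 4.21%, against 20.8% and 21.4% of T cell barcodes. Tnfaip3, the ubiquitin-editing enzyme A20, had 4.08 and 2.92 CPM in members and 135 and 91.4 CPM in T cells. Of 5 feedback genes at 20 CPM or more, 1 was 2-fold higher in mavrilimumab 2 and 0 were lower. Bcl3, an atypical IkB protein that acts in the nucleus, was that gene, with 3.83 CPM (3.31 to 4.40) and 41.7 CPM (34.0 to 50.8). Bcl3 passed the floor only through mavrilimumab 2, so this count is not a result about the list. Its ambient levels moved in the same direction, at 4.73 and 36.5 CPM, and their part in the difference was not tested.

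Effector genes of NF-kB were carried unevenly. The 21 genes summed to 744 CPM in vehicle IgG 2 and 1027 CPM in mavrilimumab 2 (T cell barcodes 1774 and 2655 CPM, ambient profiles 729 and 1628 CPM). Gadd45b, a stress-induced survival gene, had 142 and 137 CPM, and Sod2, the mitochondrial superoxide dismutase, had 122 and 134 CPM. Csf1, the growth factor of macrophages and microglia, stood at 85.0 CPM (82.5 to 87.6) and 83.5 CPM (72.3 to 95.9), against 24.2 and 2.71 CPM in T cells. Of 10 genes at 20 CPM or more, 2 were 2-fold higher and 1 was lower. The adhesion receptor Icam1 was higher, at 124 CPM (121 to 127) and 271 CPM (250.4 to 292), and so was the transcription factor Irf1, at 41.6 CPM (39.9 to 43.4) and 124 CPM (109.8 to 138). The ratio of Icam1 was 1.95 with a minimum of 2000 UMIs per member and 1.83 without members holding at least 2 UMIs over all 20 T cell and myeloid genes, both under 2-fold. The latter exclusion kept 46 members of mavrilimumab 2, against 322 over 19 of these genes. The chemokine Cxcl10 was lower, at 21.9 CPM (20.7 to 23.3) and 5.84 CPM (3.19 to 9.80), and passed the floor only through vehicle IgG 2. Several classical targets were nearly absent: Il6 had 0.289 CPM in vehicle IgG 2 and 0 UMIs in mavrilimumab 2, Tnf had 0.942 and 8.76 CPM, and Ccl20 had 0 UMIs in every library.

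Secreted factors of the cytokine list were mostly alike between the libraries, with Spp1 the exception. Others outside this list also differed. The complement gene Cfb stood at 88.0 CPM in vehicle IgG 2 and 588 CPM in mavrilimumab 2, and the secreted iron carrier Lcn2 at 8.33 and 85.5 CPM. Of 20 cytokine genes, which include the rule gene Mdk, Ptn (pleiotrophin, the relative of midkine) stood at 595 and 789.9 CPM and Vegfa, which drives vessel growth, at 118 and 64.3 CPM. Spp1 (osteopontin, a matrix protein and macrophage ligand) stood at 461 CPM (455 to 467) in vehicle IgG 2 and 3389 CPM (3316 to 3464) in mavrilimumab 2, the only gene 2-fold higher of 8 at 20 CPM or more. In mavrilimumab 2, 19.4% of its UMIs lay in 1 barcode and 45.1% in 10, against 1.19% and 8.01% in vehicle IgG 2. These shares are of 370 and 12612 members, so they are not on a like base. The ratio of Spp1 was 1.92 when members with at least 2 UMIs over all 20 T cell and myeloid genes were left out. That exclusion kept 46 members of mavrilimumab 2, against 322 over 19 of these genes, for which the ratio is given below. Csf2, which encodes GM-CSF, the ligand of the receptor that mavrilimumab binds, had 3 UMIs in the members of vehicle IgG 2 and 0 in those of mavrilimumab 2, against 31.3 and 14.1 CPM in T cell barcodes. The 3 GM-CSF receptor genes, a list added after values were seen, summed to 4.31 and 8.35 CPM, and with ambient RNA subtracted to 4.02 and 0 CPM. That subtraction used shares of 39.0% and 18.9% from all 20 T cell and myeloid genes. Over 19 of them the shares were 8.99% and 1.45%, with which the sums were not computed. The interleukin genes Il4, Il12b and Il23a were each under 1 CPM in vehicle IgG 2 and at 0 UMIs in mavrilimumab 2.

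Antigen presentation genes were lower in members than in T cells. The 13 genes summed to 1245 CPM in vehicle IgG 2 and 1821 CPM in mavrilimumab 2, against 10469.8 and 13442 CPM in T cell barcodes and 1525 and 7488 CPM in the ambient profiles. With ambient RNA subtracted the sums were 1055 and 704 CPM, in the opposite direction. The shares taken off were 39.0% and 18.9%, from all 20 T cell and myeloid genes. Over 19 of these genes the shares were 8.99% and 1.45%, and the sums were not computed with them, so the turn rests on that choice. B2m, the light chain of MHC class I, stood at 559 CPM (553 to 566) and 709 CPM (676 to 744), and H2-K1, a heavy chain, at 272 and 385 CPM. Class II genes were scarce, with Cd74 at 3.65 and 6.26 CPM. None of the 6 genes at 20 CPM or more reached 2-fold. Among ligands that restrain T cells, Lgals9 (galectin 9) had 350.3 and 293 CPM and Cd274 (PD-L1) had 3.12 CPM (2.65 to 3.63) and 1.25 CPM (0.258 to 3.66).

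Interferon-stimulated genes were measured beside these because their products are induced by another branch of the same defence. The 13 genes summed to 1169 CPM in vehicle IgG 2 and 2079 CPM in mavrilimumab 2, to 1449 and 2785 CPM in T cell barcodes and to 967 and 2204 CPM in the ambient profiles. Of 9 genes at 20 CPM or more, 4 were 2-fold higher in mavrilimumab 2 and 0 were lower. Ifitm3, which blocks entry of viruses, had 328 CPM (323 to 333) and 796 CPM (760.5 to 832), Bst2 (tetherin) had 99.0 and 202 CPM, Usp18, which removes the ISG15 tag, had 36.4 and 86.8 CPM, and Ifit1 had 21.5 and 52.6 CPM. Isg15, the ubiquitin-like tag itself, stood at 168 CPM (165 to 172) and 287 CPM (266 to 309). T cell barcodes showed Isg15 at 233 and 493 CPM, so the libraries differed in the same direction outside the members.

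Promoters of 3 interferon genes, each highest in the same group of members described below, and of Nfkbia are shown because they hold letters that the interferon and NF-kB factors are known to bind. Sequences are from RefSeq on GRCm38.p6, from 250 bases before to 50 bases after the first listed start of each gene, on the strand of the gene. The core of the interferon-stimulated response element, GAAA, any 2 bases and GAAA, was searched on both strands (the other strand reads TTTC, any 2 bases and TTTC), and matches that overlap were counted separately. It was found in 943 of all 27025 promoters (3.49%). Of the 13 interferon genes, 9 had a promoter in the table and 7 of these held it. Isg15 lies at chr4:156200769-156201068 on the minus strand with 3 overlapping matches, Ifit3 at chr19:34583279-34583578 on the plus strand with 2, and Rsad2 (viperin, which blocks viral assembly) at chr12:26456403-26456702 on the minus strand with 1. Capitals mark the matches.
Isg15: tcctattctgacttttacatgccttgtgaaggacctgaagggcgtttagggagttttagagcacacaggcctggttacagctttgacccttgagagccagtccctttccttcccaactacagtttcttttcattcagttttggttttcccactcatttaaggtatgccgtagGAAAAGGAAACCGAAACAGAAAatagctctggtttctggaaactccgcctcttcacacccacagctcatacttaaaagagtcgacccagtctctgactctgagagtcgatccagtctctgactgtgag
Ifit3: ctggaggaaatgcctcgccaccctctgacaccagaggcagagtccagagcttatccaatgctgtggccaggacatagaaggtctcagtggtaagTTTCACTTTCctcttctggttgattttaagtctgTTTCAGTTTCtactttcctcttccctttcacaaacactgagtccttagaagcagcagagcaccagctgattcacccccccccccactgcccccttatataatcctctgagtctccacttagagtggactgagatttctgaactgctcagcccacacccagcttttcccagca
Rsad2: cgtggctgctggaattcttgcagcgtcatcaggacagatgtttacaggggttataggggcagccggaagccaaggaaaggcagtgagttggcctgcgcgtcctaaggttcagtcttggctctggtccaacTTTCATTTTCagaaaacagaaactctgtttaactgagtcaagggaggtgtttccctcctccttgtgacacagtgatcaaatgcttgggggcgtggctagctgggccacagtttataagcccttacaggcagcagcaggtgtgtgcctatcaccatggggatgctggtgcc
The kappa B letters GGGA, any 1 base and TTTCC (on the other strand GGAAA, any 1 base and TCCC) were found in 104 of the 27025 promoters (0.385%), in 0 of the 9 interferon promoters, in 1 of 8 feedback promoters, that of Nfkbia, and in 4 of 16 effector promoters, those of Csf1, Cxcl1, Cxcl2 and Il6. They were also found in 1 of 9 antigen presentation promoters, that of B2m, and in 1 of 8 promoters of ZFTA-RELA-linked genes, that of Cachd1. Nfkbia lies at chr12:55492598-55492897 on the minus strand.
Nfkbia: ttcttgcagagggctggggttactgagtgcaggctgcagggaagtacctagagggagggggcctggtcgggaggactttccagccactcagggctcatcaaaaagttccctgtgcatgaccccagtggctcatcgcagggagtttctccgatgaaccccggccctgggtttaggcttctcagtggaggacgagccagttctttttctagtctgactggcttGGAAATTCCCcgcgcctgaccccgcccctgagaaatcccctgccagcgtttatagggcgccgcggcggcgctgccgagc
A match is a description of letters and not a bound site.

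Members were divided into 31 sub-clusters from their own variable genes, without correction for library. What defines a sub-cluster is a description, since the same genes made it. Leading genes were ranked by fold and can lie in few members: Sst (somatostatin) was seen in 4.14% of sub-cluster 22, Mylpf in 4.82% of sub-cluster 14 and Mobp in 7.55% of sub-cluster 1. A name with the suffix "-like" was given to 42.0% of members. Neuroblast-like members were 2049 (15.8%) in 7 sub-clusters, oligodendrocyte precursor-like 1378 (10.6%) in 4, astrocyte-like 1302 (10.0%) in 2, neuron-like 618 (4.76%) in 2 and choroid plexus-like 104 (0.800%) in 1. The other 7543 (58.0%) had no name, and no sub-cluster was named ependymal-like or radial glia-like. Sub-cluster 26 held 6 ependymal markers beside 7 of choroid plexus, and unnamed sub-cluster 30 held 4 of radial glia beside 6 of astrocytes. Divided more coarsely or finely, 20 and 45 sub-clusters left 34.4% and 49.6% of members named, so the shares depend on the division.

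The named sub-clusters differed in neuronal and glial genes, from which they were made and named. Neuron genes summed to 5125 CPM in neuron-like members, whose 2 sub-clusters were led by Adarb2 and Nrg3 and by Kcnb2 and Unc5d, and neuroblast genes to 10139.5 CPM in neuroblast-like ones. Among the latter, sub-clusters 5 and 27 had the inhibitory lineage genes Dlx5 and Sp9 among their 5 leading genes, sub-cluster 22 was led by Sst, Nrsn1 and Stmn4, and sub-clusters 15 and 25 by the excitatory lineage genes Neurod1, Eomes and Tac2. Sub-cluster 20 was neuroblast-like but led by Pclaf, Rrm2 and Ube2c, genes of dividing cells, and unnamed sub-cluster 24 (138 members) by Mcm3 and Mcm5. These members had no UMI of Mki67 and Top2a, as the rule asks, and the data there go against the word non-cycling. Over all members the 16 cell cycle genes summed to 351 CPM in vehicle IgG 2 and 266 CPM in mavrilimumab 2, against 2964 and 2523 CPM in the barcodes that the rule sets aside as cycling. Astrocyte genes reached 31249 CPM in astrocyte-like members, and precursor genes 5116 CPM in oligodendrocyte precursor-like ones. The lists were not fully apart: neuroblast-like sub-cluster 27 had astrocyte genes at 12449 CPM beside neuroblast genes at 5138 CPM.

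**Figure D3:**
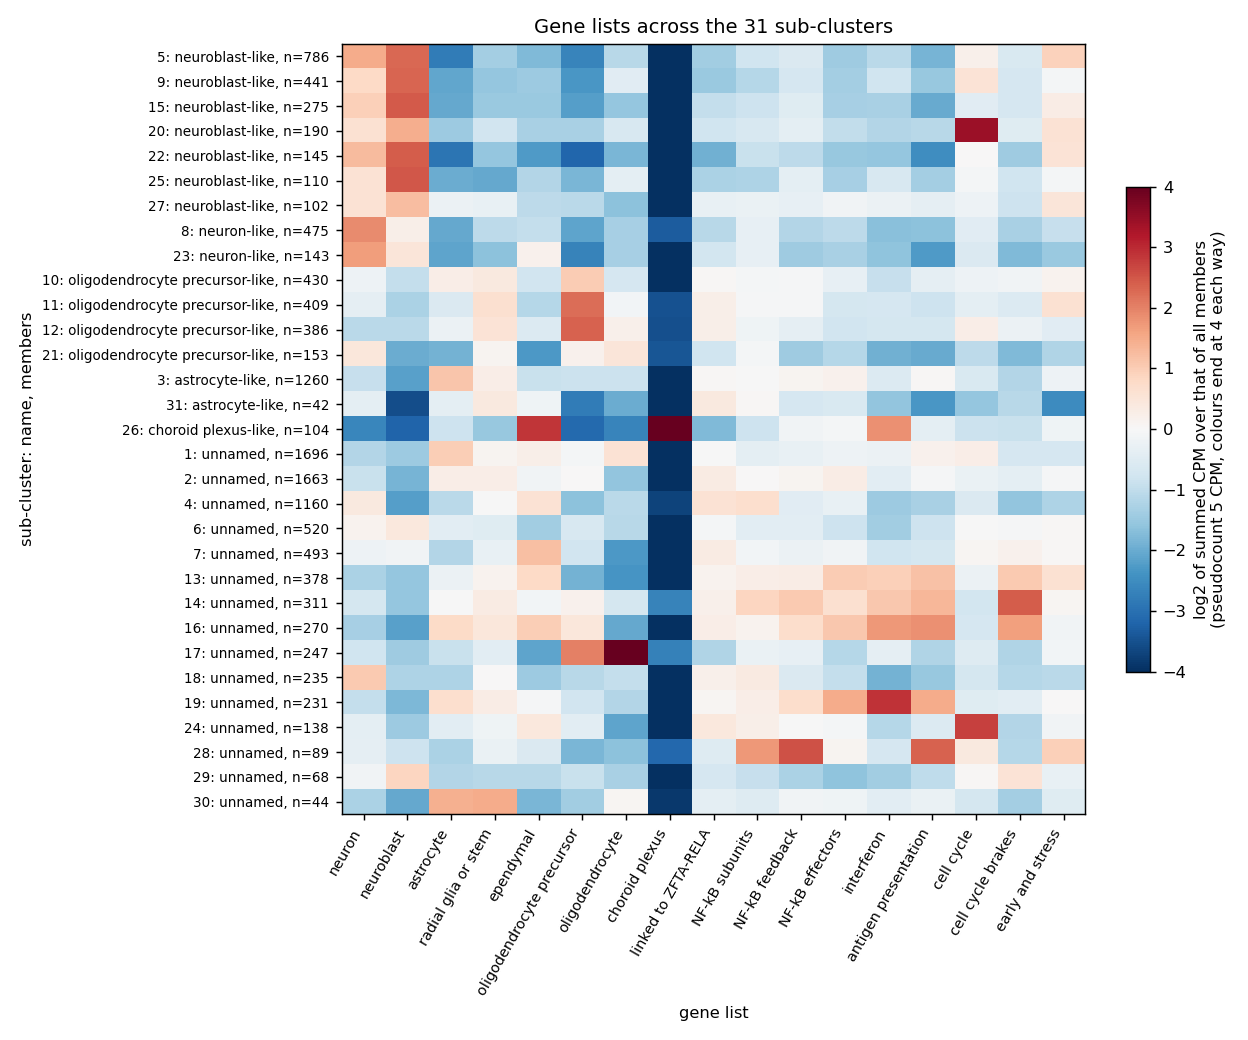
Log2 of the summed CPM of 17 gene lists in each of the 31 sub-clusters over that of all members (pseudocount 5 CPM; red higher, blue lower). Interferon genes stand highest in sub-cluster 19, NF-kB feedback genes in sub-cluster 28 and ependymal genes in choroid plexus-like sub-cluster 26; the choroid plexus column is dark elsewhere because sub-cluster 26 sets its mean.

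Interferon and stress genes varied widely among sub-clusters, named and unnamed. Unnamed sub-cluster 19 (231 members) was led by Cxcl10, Ifit3 and Ifit1, and the interferon list stood there at 9049 CPM, against 4337 CPM in choroid plexus-like sub-cluster 26, the next, and a median of 699 CPM over sub-clusters. Isg15 had 2494 CPM. Rsad2 had 189 CPM in sub-cluster 19 and 18.8 CPM in the next. Chemokine Cxcl10 stood at 669.5 CPM there and at 122 CPM in the next, so that the effector list, which counts it, was also highest there at 2142 CPM. Sub-cluster 13 (378 members, all of vehicle IgG 2) was led by Hmox1, Hspa1a and Gdf15, genes of oxidative and heat stress, with Gadd45b at 613 CPM, the cell cycle inhibitor Cdkn1a at 718 CPM and Vegfa at 422 CPM. The early stress list was highest in sub-cluster 28 (2855 CPM) and neuroblast-like sub-cluster 5 (2820 CPM).

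Sub-cluster 16 (270 members) was led by the complement genes Cfb and C3, by Fn1 (fibronectin) and by Spp1, and had 4 astrocyte markers, among them Aqp4 and Gfap, but stayed unnamed. With the libraries pooled, it had the highest Icam1 of all sub-clusters (527 CPM, against 257 CPM in the next), the highest Irf1 (217 CPM) and Cxcl2 (120.3 CPM), and Spp1 at 7313 CPM. Sub-cluster 14 (311 members) was led by Mgp, Mylpf and Meg3 and had the highest Bcl3 (66.9 CPM) and Cdkn1c, an imprinted cell cycle inhibitor (8709 CPM, against 4678 CPM in sub-cluster 16). That order held within vehicle IgG 2 (9549 and 2876 CPM) and was the other way round within mavrilimumab 2 (3548 and 6464 CPM).

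Feedback genes of NF-kB stood highest in a sub-cluster led by immune genes. Sub-cluster 28 (89 members, all of vehicle IgG 2) had Nfkbia at 426 CPM, Tnfaip3 at 141 CPM and Nfkb1 at 335 CPM, while the highest of the other sub-clusters had 96.4, 11.7 and 158 CPM. Its leading genes were Igkv1-135, Ighv1-26, Ctla2a and Jchain. Igkv1-135, Ighv1-26 and Jchain were each seen in 3.37% of its members, and Ctla2a in 56.2%. The T cell list of the sub-cluster stood at 1213 CPM and its B cell list at 1019 CPM, against at most 102 and 13.7 CPM elsewhere. Their part in the NF-kB level was not tested. Over the remaining 30 sub-clusters the feedback list ranged from 54.1 CPM (neuron-like sub-cluster 23) to 325 CPM (sub-cluster 14).

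Rela varied little by comparison, from 19.1 to 84.5 CPM, highest in oligodendrocyte precursor-like sub-cluster 12. Zfta ranged from 24.4 CPM in choroid plexus-like sub-cluster 26 to 197 CPM in sub-cluster 4, which was led by Glis3, Alk and Gli2 (541 CPM of Gli2). Ccnd1 ranged from 65.3 to 1023 CPM and was highest in oligodendrocyte precursor-like sub-cluster 12. L1cam stood at 144 CPM in neuroblast-like sub-cluster 15 and 104 CPM in sub-cluster 25, against a median of 1.37 CPM. Sub-cluster 28, with the highest feedback genes, had 50.1 CPM of Rela, against a median of 42.9 CPM over sub-clusters.

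Ependymal genes stood highest in choroid plexus-like sub-cluster 26, at 823 CPM, against 258 CPM in sub-cluster 7 and 220.0 CPM in sub-cluster 16. There Foxj1 had 158 CPM, the radial spoke gene Rsph1 163 CPM and the cilium gene Pifo 97.6 CPM. In sub-cluster 7, led by Neurog1 and Chodl, the list was mostly Hydin, a gene of the ciliary central pair, at 204 CPM. In sub-cluster 16 it was mostly Rarres2, at 204 CPM. Ccdc153 was at most 5.43 CPM in any sub-cluster.

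**Figure D4:**
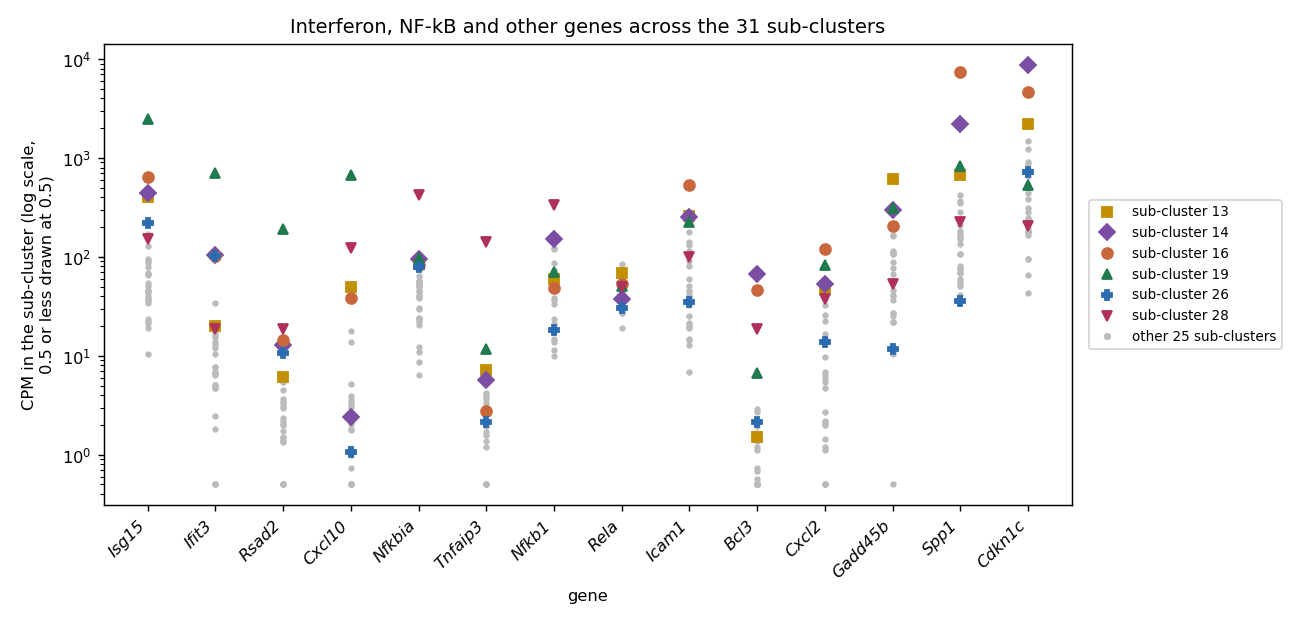
CPM of 14 genes in each of the 31 sub-clusters, libraries pooled (log scale, one point per sub-cluster, 6 of them coloured). Sub-cluster 19 lies highest for Isg15 (2494 CPM), Ifit3, Rsad2 and Cxcl10, sub-cluster 28 for Nfkbia (426 CPM) and Tnfaip3, sub-cluster 16 for Icam1 and Spp1, and sub-cluster 14 for Bcl3 and Cdkn1c.

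The genes with the largest ratios between mavrilimumab 2 and vehicle IgG 2 often came from few barcodes. F5 (coagulation factor V) stood at 5.48 CPM in vehicle IgG 2 and 106 CPM in mavrilimumab 2, and 99.6% of its UMIs in mavrilimumab 2 lay in the 6 choroid plexus-like barcodes. Agt (angiotensinogen) stood at 0.712 and 23.8 CPM, with 89.5% of its UMIs in 1 barcode. The muscle gene Cox6a2 stood at 1.79 and 38.4 CPM, with 98.9% in 1 barcode, and all 50 UMIs of Gm41609 lay in 1 barcode.

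Among the largest ratios downward, Igkv1-135 had 2428 UMIs in 3 barcodes of vehicle IgG 2 and 0 UMIs in mavrilimumab 2, and Ighv1-26 had 893 UMIs in 4 barcodes and 0. Matn1, a matrix gene, stood at 45.03 CPM (43.2 to 46.9) and 2.50 CPM (0.919 to 5.45), and 51.6% of its UMIs in vehicle IgG 2 lay in sub-cluster 17, which had Enpp6 and Gpr17, genes of newly formed oligodendrocytes, among its leading genes. The gap junction gene Gjc3 (17.5 and 0.835 CPM) and Ctla2a (25.4 and 2.09 CPM), which T cells also express at 1231 and 262 CPM, completed the list. The immunoglobulin genes thus came from a handful of barcodes.

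Much of the higher level of Spp1, Cfb, Cdkn1c and Icam1 in mavrilimumab 2 lay in 1 sub-cluster. Sub-cluster 16 held 151 of its 370 members (40.8%, 35.8 to 46.0) and 118 of the 12612 of vehicle IgG 2 (0.936%, 0.775 to 1.12), a description, since the clustering used the same genes and a group mostly of 1 library may be that library. Of the Spp1 UMIs of mavrilimumab 2, 91.5% lay there, as did 85.5% of those of Cfb, 66.3% of Cdkn1c and 65.6% of Icam1. Within the sub-cluster several of these genes were closer. Of 7955 genes at 20 CPM or more in either library there, 179 were 2-fold higher in mavrilimumab 2 and 1204 lower. Icam1 stood, with overlapping intervals, at 485 CPM (435 to 539) in vehicle IgG 2 and 581 CPM (527 to 639) in mavrilimumab 2, Ifitm3 at 1863 and 1835 CPM, Cfb at 1603 and 1645 CPM, and Aqp4 at 222 and 175 CPM. Feedback genes of NF-kB summed to 256 CPM (219.9 to 296) and 262 CPM (226 to 302), and effector genes to 1612 and 1592 CPM. The interferon list had the opposite direction there, at 4504 CPM (4348 to 4664) and 3635 CPM (3498 to 3776). A difference remained for Spp1, at 4355 CPM (4201.5 to 4512) and 10137 CPM (9908 to 10370.4), and for Cdkn1c, at 2876 and 6464 CPM. Over all members of mavrilimumab 2, 10 barcodes held 45.1% of the Spp1 UMIs and 49.8% of those of Cdkn1c. The intervals do not cover this spread between barcodes, so the difference need not hold across the sub-cluster. Lcn2, a secreted iron carrier, stood at 44.3 and 265 CPM. The myeloid list moved with these genes in the sub-cluster, at 811 and 3158 CPM, and so did the T cell list, at 7.15 and 51.8 CPM, and the fibroblast list, at 2621 and 4944 CPM. Over all members, T cell and myeloid genes came to 496 and 1902 CPM, but to 40.8 and 101 CPM over 19 of the 20. The myeloid list was thus mostly the gene left out, and need not stand for myeloid RNA at large. The maternally expressed long RNA Meg3 stood at 811 and 24.6 CPM. Leaving out members with at least 2 UMIs over all 20 T cell and myeloid genes kept 7424 and 46 members, and the log2 ratio of Ifitm3 over all members was then 0.78, under 2-fold. The same over 19 of these genes kept 12402 and 322 members, and the log2 ratio of Spp1 was 2.63.

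Several genes had another direction in sub-cluster 14, where 1578 of 8740 genes were 2-fold higher in mavrilimumab 2 and 1585 were lower. Over all members, 387 of 8640 were higher and 199 lower. In sub-cluster 14, with 270 and 37 members, Cdkn1c stood at 9549 CPM in vehicle IgG 2 and 3548 CPM in mavrilimumab 2. Spp1 stood at 2527 and 986 CPM, and Isg15 at 539 and 53.2 CPM, all in the opposite direction to the whole. Intervals do not cover the spread between barcodes: in mavrilimumab 2, 98.9% of the Cox6a2 UMIs lay in 1 barcode of sub-cluster 14. Nfkb1 stood there at 105 CPM (90.9 to 119.7) and 310.1 CPM (259.8 to 367), and Bcl3 at 58.8 CPM (48.6 to 70.4) and 109 CPM (79.9 to 145). In sub-cluster 1, with 1621 and 74 members and led by Mt1, Mobp and Mbp, Icam1 stood at 83.7 CPM (73.8 to 94.6) and 49.6 CPM (25.6 to 86.6), the latter from 12 UMIs and with overlapping intervals. Of 7600 genes in sub-cluster 1, 356 were 2-fold higher in mavrilimumab 2 and 617 lower. Spp1 (415 and 517 CPM), Ifitm3 (333 and 455 CPM), Gfap (158 and 438 CPM) and Aqp4 (14.3 and 116 CPM) had the direction of the whole there. The myeloid list, over all members mostly the gene left out of the 19, also had it, at 907 and 3008 CPM. Its part in these differences was not tested within the sub-cluster. In sub-cluster 16 Bcl3 stood at 32.9 CPM (20.9 to 49.4) and 61.4 CPM (44.8 to 82.1), with overlapping intervals, and Nfkb1 at 67.2 and 30.01 CPM, the other way round.

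**Figure D5:**
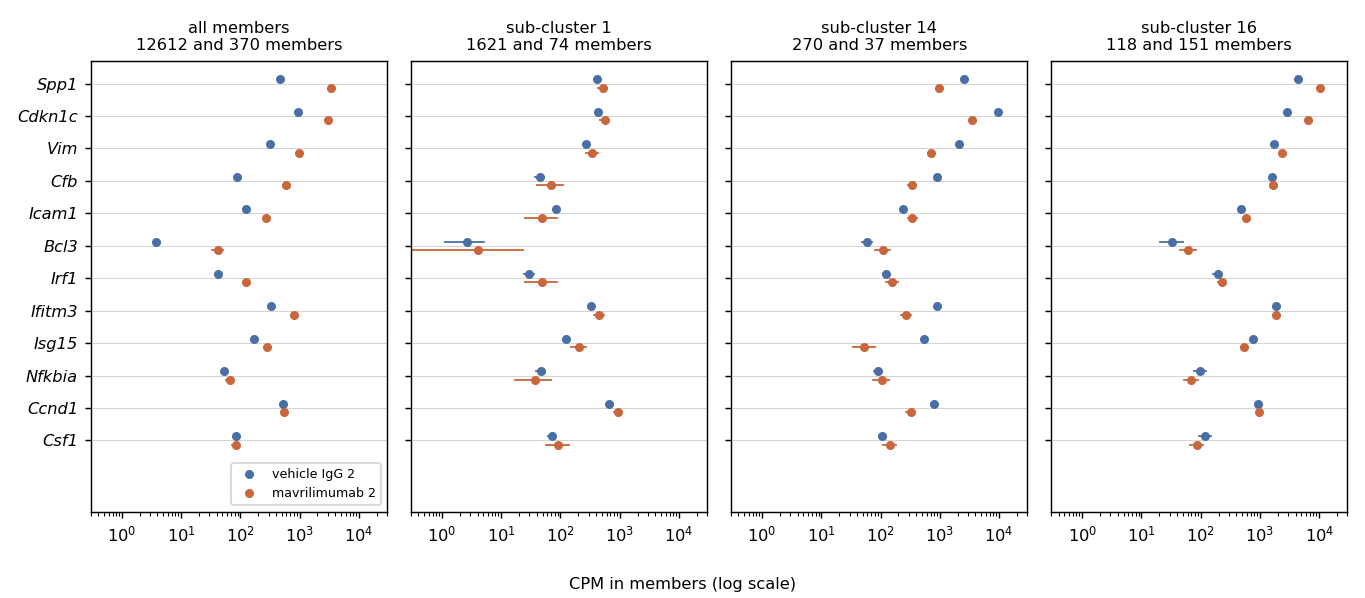
CPM of 12 genes (log scale) with Poisson 95% intervals in vehicle IgG 2 and mavrilimumab 2, over all members and within sub-clusters 1, 14 and 16. Icam1 is 2-fold apart over all members (124 and 271 CPM) and closer within sub-cluster 16 (485 and 581 CPM), while Cdkn1c and Spp1 point one way in sub-cluster 16 and the other way in sub-cluster 14.

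A fit over the 4 libraries, taking those with 5 or 7 members at their counts, was run as an alternative to the comparison of single libraries. The quasi-likelihood test of edgeR called 0 of 10905 genes (0.0%) between the groups at a false discovery rate of 0.05, with 77 genes at an unadjusted p under 0.05, and DESeq2 called 0 with 123. Without vehicle IgG 1, whose 7 members were led by choroid plexus genes, edgeR called 31 of 13048 genes, in a fit of 1 vehicle library against 2 of mavrilimumab whose spread between libraries came from the mavrilimumab pair alone.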

How the data were processed

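The deposited files were matrices of UMI counts per gene and droplet barcode for 4 libraries (33696 genes), made by the authors with Cell Ranger. The file headers name version 9.0.1 and the submitters' processing notes versions 7 and 7.1.0, with build mm10. The annotation is not given in the sources used here. Receptor files served only to compare barcodes, and 1 receptor sample had no file analysed.

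Members and gene lists were chosen with earlier results of these data known. Counts of members were added per library, and CPM were compared with a pseudocount of 1 CPM and a floor of 20 CPM in either library. Poisson and Clopper-Pearson intervals were at 95%. Shares of cells with a UMI were also taken after thinning to 1000 UMIs. No doublet caller was run: members with T cell and myeloid UMIs, or over 3 times the median UMIs, were left out as alternatives. Named genes were the genes of each list with the highest CPM, those of the NF-kB, ZFTA-RELA and cytokine lists, up to 15 that set members apart, and the 5 largest ratios each way. A few of these genes are not reported here.

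Sub-clusters used 2000 variable genes, 30 components, 15 neighbours and Leiden at resolution 1 (leidenalg 0.10.2). A name needed 3 markers at 2-fold in 20% of cells, more than any other list had, and, where list genes were among the 10 leading genes, more of its own there than of any other list. Fits used edgeR 4.0.16 (quasi-likelihood, Benjamini-Hochberg) and DESeq2 1.42.0. The fit was tested on simulated data. Libraries were taken as replicates. The labels do not say that they came from separate animals, so p-values measure only the spread between these samples.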

Additional observations from a re-analysis of the deposited data

How the results depend on the processing

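Alternatives were the limits on UMIs, mitochondrial share and marker UMIs, the ambient level, scaling, and leaving out libraries. Leaving out members by 19 T cell and myeloid genes, or the choroid plexus-like or the immunoglobulin sub-cluster, was chosen after seeing the data. Leaving out 1 library at a time moved the difference in share between -43.7 and 2.70 points, the latter without vehicle IgG 2. With marker UMIs above the upper quantile of the ambient level it was -3.24 points, with 2765 members of vehicle IgG 2. Below, marker UMIs above the ambient level means above this quantile. Leaving out 1 library moved the fit between 0 and 31 genes, the latter without vehicle IgG 1. The fit called 13 of 24586 genes without the filter on low counts and 24 of 11883 with marker UMIs above the ambient level, where vehicle IgG 1 kept 3 members and was not in the fit, so that vehicle IgG 2 alone stood against 2 libraries. With a replicate block it called 0 of 10905 genes, with 139 at an unadjusted p under 0.05, and the deviations of paired libraries correlated at 0.187, but 2 pairs share only a number. The 2-fold count was 1962 genes with no floor and 3752 when members with at least 2 UMIs over all 20 T cell and myeloid genes were left out, which keeps 46 members of mavrilimumab 2.

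That last exclusion also reversed log2 ratios, to -1.16 for F5, -0.82 for Agt, -1.10 for Cox6a2, -0.98 for Gm41609, -5.26 for Ttr, -2.63 for Lcn2 and -0.82 for Gfap, and to -2.15 for the choroid plexus, -0.62 for the myeloid, 0.040 for the B cell and -0.21 for the cytokine list. Over 19 of these genes, Cox6a2 had -0.79 and Gm41609 -0.68. At least 10 marker UMIs gave -1.002 for F5, -5.37 for Ttr and -2.75 for the choroid plexus list. Marker UMIs above the ambient level gave -1.23, -3.17 and -1.04 for the same. Without members over 3 times the median UMIs they had -2.27, -5.65 and -3.67, and Gm41609 -0.72. Without the choroid plexus-like sub-cluster Ttr had -2.45 and the list -0.60. These alternatives also kept fewer members, and the cause of the reversals was not tested. Of 696 values of named genes and lists under alternatives, 629 kept their direction, and of 384 values for those at 2-fold or more, 351 did, 26 of them under 2-fold. These counts include scalings with factors of 0.9965 to 1.0035, which could hardly turn a direction. They also include exclusions of a sub-cluster, which can move only some genes. Subtracting ambient RNA moved 48 of 54 list levels outside their counting interval and turned the direction between the libraries for antigen presentation (1055 and 704 CPM), radial glia (2729.9 and 2745 CPM), ZFTA-RELA-linked (1231 and 1359.9 CPM), cell cycle (88.3 and 96.7 CPM) and GM-CSF receptor genes (4.02 and 0 CPM). The share taken off, from all 20 T cell and myeloid genes, was 39.0% in vehicle IgG 2 and 18.9% in mavrilimumab 2. Over 19 of these genes the share was 8.99% and 1.45%. List levels were not computed with the smaller share, so these turns rest on the larger. Fits with at least 10 marker UMIs, with the exclusion over all 20 genes and without the choroid plexus-like sub-cluster were not run, since fewer than 3 libraries kept 5 members.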

Other observations

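Gene groups outside the main lists also differed between the libraries, and their lists were drawn up after values were seen. The 16 measured imprinted genes, many of which regulate growth of the embryo, summed to 13026.5 CPM in members of vehicle IgG 2 and 16535 CPM in those of mavrilimumab 2. Of the 14 that reached 20 CPM, 6 were at least 2-fold higher in mavrilimumab 2 and 1 was lower. Among the higher ones, Rian passed the floor only through mavrilimumab 2. The 13 skeletal muscle genes summed to 133 and 592 CPM, with 489 CPM in the ambient profile of mavrilimumab 2, and 6 of 6 at 20 CPM or more were 2-fold higher. Some of these, such as Cox6a2 and Ckm, passed the floor only through mavrilimumab 2. Myeloid barcodes of vehicle IgG 2 held 637 CPM of the list, above its members. Acta1, Ckm, Mylpf, Tnnt3, Tnnc2 and Tnni2 together had no higher sum in mavrilimumab 2 within sub-cluster 14 (1853 and 882 CPM) or sub-cluster 16 (877 and 857 CPM). Most of these UMIs in mavrilimumab 2 were of Tnnt3 (a troponin T), at 75.5 and 377 CPM, seen in 103 members (27.8%), with 69.1% of its 903 UMIs in sub-cluster 16. Mylpf, a myosin light chain, differed from it in that 97.1% of its 104 UMIs lay in 1 barcode. The 3 GM-CSF receptor genes summed to 71.3 CPM in the ambient profile of mavrilimumab 2, above the 8.35 CPM of its members.

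Astrocyte genes of sub-clusters 1 and 14 had opposite directions between the libraries: the list stood at 28397 CPM in vehicle IgG 2 and 34903 CPM in mavrilimumab 2 in sub-cluster 1, and at 16855 and 4534 CPM in sub-cluster 14. The cause of these differences was not tested.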
